A study of Mus musculus with 8 samples.

Results

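Expression of 10 genes was compared between intervertebral discs of immunized and naive mice: the matrix genes Fn1, Tnc, Postn, Sparc, Thbs1, Thbs2 and Thbs4, and the tendon genes Tnmd, Scx and Mkx. They were chosen by name, with earlier results of these data known. Their values were read from the 18 probe sets whose platform annotation names 1 of them alone, of 45101 probe sets on the array. A gene's value is the mean of its sets (10 of 18193 genes). The samples were 8 RNA preparations from lumbar discs of female BALB/c mice, each from 6 pooled discs. In 5 samples the mice had been immunized with cartilage proteoglycan (100 µg of protein) and 2 mg of the adjuvant dimethyldioctadecylammonium bromide (DDA) on days 0, 21 and 42, which leads to proteoglycan-induced spondylitis, an autoimmune inflammation of the spine. In 3 samples the mice were age-matched and naive, so that no group received the adjuvant alone, and antigen and adjuvant cannot be told apart. The titles call the samples biological replicates, of 5 immunized and 3 naive mice per the protocol. Naive replicate 3 and immunized replicate 1 are described by 2 joined sample numbers, and how many mice they hold is not given here.

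Matricellular proteins are secreted into the matrix, where they act mainly on how cells attach to it and respond to growth factors rather than as scaffold. Fibronectin, which is both a structural and an adhesive protein, is assembled into fibrils through integrins, and tenascin-C and periostin are known for their induction in wounds, mechanical load and inflammation. The thrombospondins bind calcium, cell surface receptors and other matrix proteins. Scleraxis and Mohawk are transcription factors of tendon and ligament cells, tenomodulin is a membrane protein of mature tendon cells, and the outer annulus fibrosus of the disc is a fibrous tissue that shares many of these genes.

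The deposited values are log2 expression, each relative to the median of its probe set over the 8 arrays. A value of 0 is therefore that median, a difference of 1 is a doubling, and levels cannot be compared between genes. From the spacing of the printed numbers, the lowest array was at 8 or more on the log2 scale for 14 of the 18 probe sets. It was between 4 and 8 for the other 4, those of Scx and Mkx and 1 of Sparc. Single samples stood apart in marker lists of other cells. The mean of 8 megakaryocyte and platelet markers was 1.02 in immunized replicate 3, 0.77 in immunized replicate 5 and 0.28 in naive replicate 1, and lay between -0.33 and 0.25 in the rest. Of 8 chondrocyte markers all were lower in the immunized group (2 past the test), and of 8 macrophage markers all were higher (5 past the test). Likewise 6 measured nucleus pulposus and notochord markers were all lower (1 past the test), and 7 neutrophil markers all higher (3 past the test). Over all genes, 9.14% passed and 56.1% were below 0. Of 12 skeletal muscle markers 0 passed in limma and 0 had an unadjusted p under 0.05. In bulk discs, fewer cells of a type and less RNA per cell cannot be told apart. No chondrocyte, nucleus pulposus or fibroblast marker measured had every probe set below 4 on some array.

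None of the 10 genes passed the test of immunized against naive discs. In limma 0 of 10 were called (adjusted p under 0.05, adjusted over the whole table), where 9.14% of 18193 genes were (4.46% higher and 4.68% lower). Before adjustment, with p under 0.05, 2 of 10 were lower, Thbs1 and Sparc, and 0 were higher, against 18.2% of all genes lower, 12.9% higher and 31.1% in either direction. The median difference of the 10 genes was -0.24, against -0.035 over all genes, with 4 genes above 0 and 6 below. The groups did not overlap in 1 of 10, Sparc, in which the immunized samples were lower, against 14.0% of all genes in that direction and 23.4% in either. The 95% intervals of 6 genes, Fn1, Tnc, Postn, Sparc, Thbs2 and Scx, lay inside a change of 1 in either direction. Those of Thbs1, Thbs4, Tnmd and Mkx reached past it on one side, so that 8 arrays did not limit the change of these 4 to less than a doubling or halving.

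The outcome depended on how the arrays were weighted. With array weights, which give less weight to arrays that deviate more from the fit, limma called 5 of the 10 genes, where it called 32.4% of all genes (18.7% lower and 13.7% higher). Thbs1 (-0.78, adjusted p = 0.024), Sparc (-0.40, adjusted p = 0.011), Scx (-0.34, adjusted p = 0.022) and Mkx (-0.64, adjusted p = 0.030) were lower in immunized discs in that setting, and Tnc was higher (0.48, adjusted p = 0.0495).

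**Figure D1:**
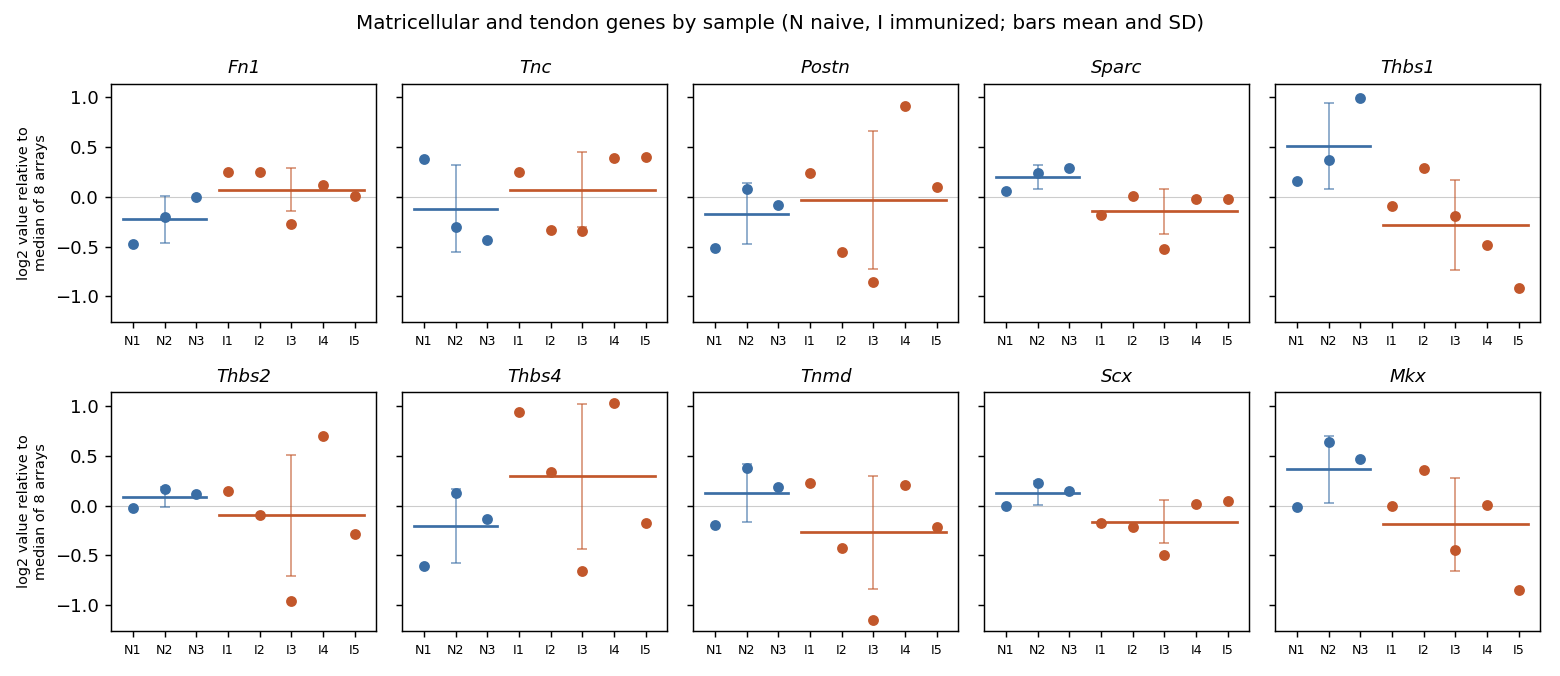
Log2 value relative to the median of the 8 arrays (vertical axis) in each sample (N1 to N3 naive in blue, I1 to I5 immunized in orange) for the 10 genes; each point is 1 sample, horizontal lines are group means and error bars are SD. Postn, Thbs2 and Thbs4 spread over more than 1.5 units among the immunized samples, and only in Sparc do all 5 immunized samples lie below all 3 naive samples.

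Among the adhesive and matricellular genes outside the thrombospondins, the differences were small. Fn1, which encodes fibronectin, was -0.47, -0.21 and 0.00081 in naive replicates 1 to 3 and 0.25, 0.25, -0.27, 0.12 and 0.0084 in immunized replicates 1 to 5. Naive replicate 1 was the lowest sample, and immunized replicate 3 lay within the naive range. The difference was 0.30 ± 0.15 (SE, adjusted p = 0.201 in limma, 95% interval -0.035 to 0.63), and its probe sets gave 0.10 ± 0.12 and 0.49 ± 0.20. Tnc, which encodes tenascin-C, was 0.38, -0.30 and -0.44 in the naive samples and 0.25, -0.33, -0.34, 0.39 and 0.40 in the immunized samples. Each group held samples at both ends of the range, with naive replicate 1 next to the 2 highest immunized samples. The difference was 0.19 ± 0.25 (adjusted p = 0.630 in limma, 95% interval -0.36 to 0.75), and it was 0.44 without naive replicate 1 and -0.011 without both samples whose descriptions join 2 numbers.

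Postn encodes periostin, a protein of collagen-rich tissue that binds integrins. It was -0.51, 0.080 and -0.080 in the naive samples and 0.24, -0.55, -0.86, 0.91 and 0.095 in the immunized samples. The immunized samples thus lay on both sides of the naive ones, immunized replicate 3 lowest and immunized replicate 4 highest of all 8. The difference was 0.14 ± 0.36 (adjusted p = 0.826 in limma, 95% interval -0.68 to 0.95), and its sign turned without naive replicate 1 (-0.033) or immunized replicate 4 (-0.099). Sparc encodes osteonectin, which binds collagen and calcium. It was 0.062, 0.24 and 0.29 in the naive samples and -0.18, 0.0045, -0.52, -0.018 and -0.017 in the immunized samples. All immunized samples were below all naive ones, by as little as the gap between naive replicate 1 and immunized replicate 2. The difference was -0.34 ± 0.13 (adjusted p = 0.116 in limma, 95% interval -0.64 to -0.047), and its 3 probe sets gave -0.43, -0.38 and -0.23. The groups did not overlap in the first and second of these sets. They did in the third, 1458204_at, where naive replicate 1 (-0.10) lay below immunized replicate 5 (0.045).

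Of the thrombospondins, Thbs1 and Thbs2 were lower on average in immunized discs and Thbs4 higher, and none passed. Thbs1 encodes thrombospondin-1, a protein of platelet granules and matrix that can activate latent TGF-beta. It was 0.16, 0.37 and 0.99 in the naive samples and -0.095, 0.29, -0.19, -0.49 and -0.92 in the immunized samples. Immunized replicate 2 lay above naive replicate 1, and the other 4 immunized samples lay below the naive range. The difference, the largest of the 10 in size, was -0.79 ± 0.27 (adjusted p = 0.0936 in limma, 95% interval -1.41 to -0.17), a ratio of 1.73 between naive and immunized. Its probe sets gave -0.88 ± 0.37 and -0.69 ± 0.19. Without immunized replicate 2 the difference was -0.93 and passed (adjusted p = 0.040), where 9.40% of all genes passed as lower. Megakaryocyte and platelet markers were above 0 in each of 8 genes compared between groups, with 0 of 8 past the test, while Thbs1 was below 0, and the part of these cells in the Thbs1 values was not tested.

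Thbs2 encodes thrombospondin-2, which is made by connective tissue cells and restrains vessel growth. It was -0.024, 0.16 and 0.11 in the naive samples and 0.15, -0.096, -0.96, 0.70 and -0.28 in the immunized samples. As means of the gene's 3 probe sets, the naive samples lay close together (SD 0.098, n = 3). The immunized samples lay far apart on both sides of the naive ones (SD 0.61, n = 5). The probe sets 1422571_at, 1447862_x_at and 1450663_at disagreed in naive replicate 3 (0.42, -0.28 and 0.20), which the mean hides. The difference was -0.18 ± 0.30 (adjusted p = 0.714 in limma, 95% interval -0.87 to 0.50), and it was 0.031 without immunized replicate 3. In the same order, the probe sets gave -0.41, 0.032 and -0.17. The 95% interval of 1422571_at, -1.13 to 0.31, reached past a halving. Thbs4 encodes thrombospondin-4, a pentameric form found in tendon and muscle. It was -0.61, 0.13 and -0.13 in the naive samples and 0.94, 0.33, -0.66, 1.03 and -0.18 in the immunized samples. Immunized replicates 1, 2 and 4 were above the naive samples, and immunized replicate 3 was just below them. The difference was 0.50 ± 0.38 (adjusted p = 0.406 in limma, 95% interval -0.37 to 1.36). It was 0.29 without naive replicate 1 and 0.73 without immunized replicate 3.

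Related genes were also compared with each other within each sample, where effects common to the whole array cancel. For 7 pairs, the log2 value of one gene minus that of the other was compared between the groups by an exact two-sided permutation test over the 56 splits of 3 and 5 samples. The smallest p that this test can give is 0.0357. Thbs2 minus Thbs4 reached it, with 0.29 ± 0.28 (SD, n = 3) in naive and -0.39 ± 0.26 (SD, n = 5) in immunized discs (exact permutation p = 0.0357, 0.25 adjusted over the 7 pairs). It was higher in each naive sample (0.035 to 0.58) than in each immunized sample (-0.80 to -0.10), and the pair did not pass after adjustment. Thbs1 minus Thbs4 was lower in immunized discs by the widest margin (-1.28, exact permutation p = 0.0714, adjusted p = 0.25), and Thbs1 minus Thbs2 differed by -0.60 (exact permutation p = 0.321, adjusted p = 0.75). With an adjusted p of 0.25 or more for all 3 pairs, a different response of the thrombospondin genes was not shown, which does not show a like one.

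**Figure D2:**
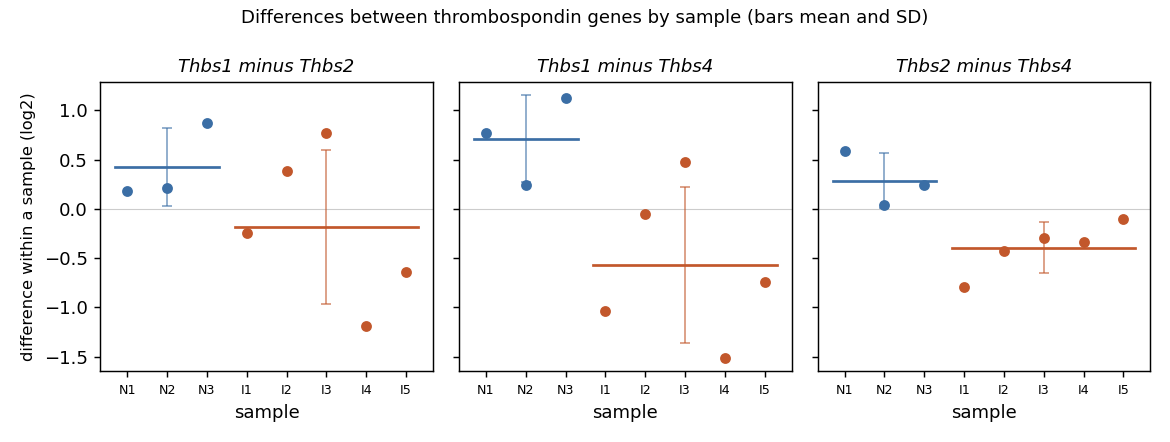
Difference between the log2 values of 2 thrombospondin genes (vertical axis) in each sample (N1 to N3 naive, I1 to I5 immunized); each point is 1 sample, horizontal lines are group means and error bars are SD. For Thbs2 minus Thbs4 the immunized points lie between -0.80 and -0.10, below all naive points, while the groups overlap for Thbs1 minus Thbs2 and Thbs1 minus Thbs4.

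The tendon genes were lower on average in immunized discs, and none passed. Tnmd encodes tenomodulin, a late marker of tendon cells. It was -0.19, 0.38 and 0.19 in the naive samples and 0.23, -0.43, -1.15, 0.21 and -0.21 in the immunized samples. Immunized replicate 3 was far below the others, and immunized replicates 1 and 4 lay within the naive range. The difference was -0.40 ± 0.30 (adjusted p = 0.398 in limma, 95% interval -1.08 to 0.28), and it was -0.18 without immunized replicate 3. Scx encodes scleraxis, a basic helix-loop-helix factor that specifies tendon progenitors. It was -0.0058, 0.23 and 0.15 in the naive samples and -0.17, -0.21, -0.49, 0.020 and 0.042 in the immunized samples. Immunized replicates 4 and 5 lay above naive replicate 1, and the other 3 below all naive samples. The difference was -0.29 ± 0.13 (adjusted p = 0.165 in limma, 95% interval -0.58 to 0.0041).

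The probe sets of Scx disagreed. One of them, 1428983_at, gave -0.57 ± 0.18 (adjusted p = 0.080 in limma over 34945 probe sets) with all immunized samples below all naive ones, from -0.78 to 0.082 against 0.15 to 0.36. The other, 1456291_x_at, gave -0.0066 ± 0.13 (adjusted p = 0.978). The suffix _x_at marks a set whose probes can also bind other transcripts, and the gene's mean averages the pair. Mkx encodes Mohawk, a homeobox factor needed for collagen fibril growth in tendon. It was -0.013, 0.64 and 0.47 in the naive samples and -0.0022, 0.36, -0.44, 0.0022 and -0.85 in the immunized samples. Immunized replicate 5 was lowest, immunized replicate 3 next, and the other immunized samples lay within the naive range. The difference was -0.55 ± 0.26 (adjusted p = 0.189 in limma, 95% interval -1.15 to 0.045). The differences between tendon genes did not separate the groups either, with -0.11 for Tnmd minus Scx, 0.15 for Tnmd minus Mkx and 0.26 for Scx minus Mkx (exact permutation p = 0.679, 0.821 and 0.536, adjusted p = 0.821 for each). Skeletal muscle markers would be carried beside tendon genes by a sample with attached back muscle. Their mean was -0.57, 0.26 and 0.034 in naive replicates 1 to 3 and -0.32 to 0.28 in immunized samples. Their part in the tendon genes was not tested.

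**Figure D3:**
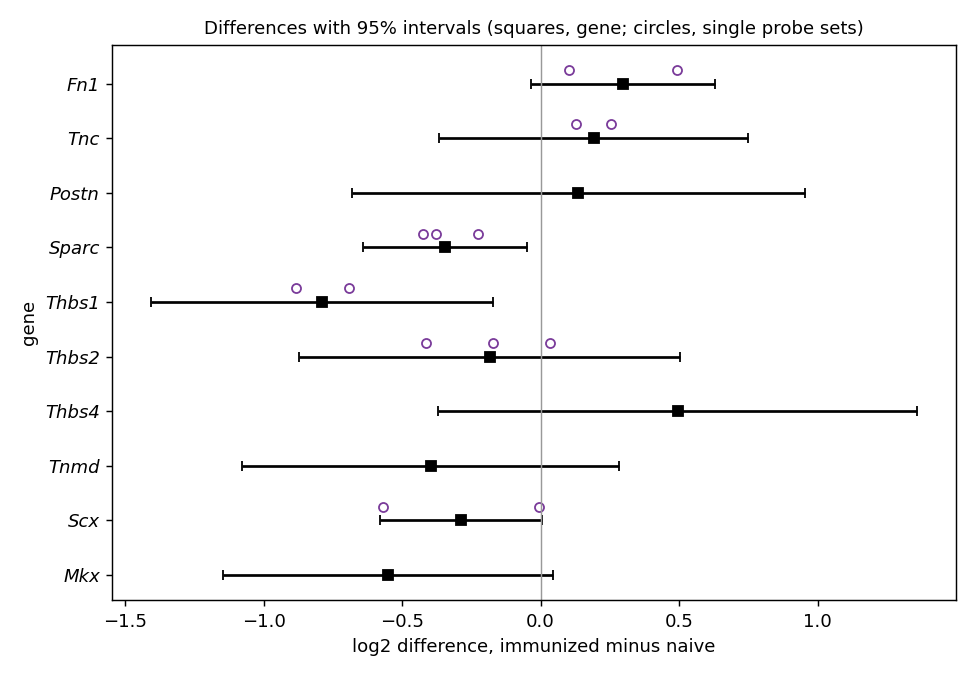
Log2 difference, immunized minus naive (horizontal axis), for each gene (vertical axis); squares are the gene's value with its 95% interval from limma, and open circles are single probe sets of genes that have more than 1. Only the intervals of Sparc and Thbs1 leave out 0 before adjustment, and the circles of Scx lie far apart (-0.57 and -0.0066).

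Values of these genes were widely spread among the immunized samples. The SD over the 5 immunized samples was 0.70 for Postn, 0.61 for Thbs2, 0.72 for Thbs4 and 0.57 for Tnmd, larger than that of 99.0%, 98.2%, 99.2% and 97.5% of all genes. The median SD was 0.46 for the 10 genes and 0.14 over all genes in the immunized group, and 0.30 and 0.14 in the naive group. In 8 of 10 genes the immunized SD was larger than the naive one, against 50.8% of all genes. Immunized replicate 3 was the lowest of the 8 samples in 6 of the 10 genes (Postn, Sparc, Thbs2, Thbs4, Tnmd and Scx), against 17.6% of all genes. Immunized replicate 4 was the highest in Postn, Thbs2 and Thbs4, the 3 genes in which immunized replicate 3 was also the lowest; 2.10% of all genes had this order. This order was noticed after the values were seen. Neither the spread nor the order was particular to the 10 genes. The matrix genes Tnn (immunized SD 0.79) and Col3a1 (0.61) were as wide and had the same order, while Dcn (0.22) was narrower. All genes also include more at low levels: the lowest array was at 8 or more for 32.5% of all probe sets, against 14 of 18 here. Fibroblast marker means were also lowest in immunized replicate 3 (-0.30) and highest in immunized replicate 4 (0.46). The list was mixed: in immunized replicate 3 Pi16 (0.24) and Dpp4 (0.31) were above 0 and its other measured genes below. In immunized replicate 4 only Dpp4 (-0.14) was below 0. In immunized replicate 3 the chondrocyte mean was the lowest and the erythroid mean (0.77) the highest of the 8 samples. The part of cell makeup in these values was not tested. Naive replicate 1 and immunized replicates 3 and 5 were also left out together, as the samples with the 3 highest megakaryocyte means, although naive replicate 1 (0.28) lay close to immunized replicate 1 (0.25), which was kept. This setting was chosen after the data were seen and left few samples in each group. Then 0 of 10 genes passed in limma, where 218 of 18193 genes did, and Thbs2 was at 0.11. Before adjustment 6 of the 10 had p under 0.05, Fn1 and Thbs4 higher and Sparc, Thbs1, Scx and Mkx lower, against 22.2% of all genes in either direction.

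**Figure D4:**
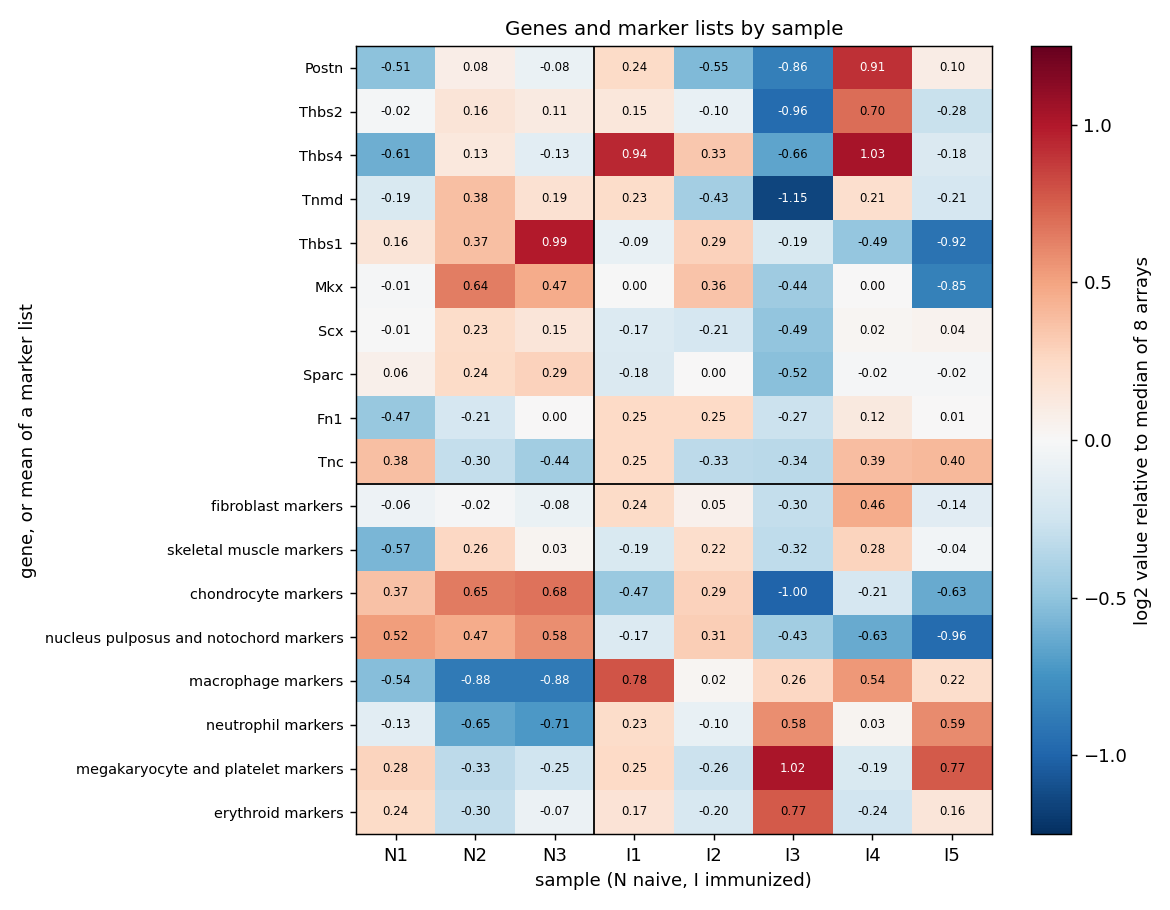
Log2 value relative to the median of the 8 arrays (colour, printed in each cell) for the 10 genes (upper block) and the mean of 8 marker lists (lower block) in each sample (N1 to N3 naive, I1 to I5 immunized). In column I3 Postn, Thbs2, Thbs4 and Tnmd are between -1.15 and -0.66 and the megakaryocyte and platelet mean is 1.02, while in column I4 Postn, Thbs2 and Thbs4 are between 0.70 and 1.03.

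The bases before the start sites of these 4 genes with a wide spread are shown from RefSeq (GRCm38.p6), as 250 bases, 5′ to 3′, with the letters CANNTG and TATAAA in capitals. CANNTG is the core of the E-box that basic helix-loop-helix factors such as scleraxis bind, and TATAAA is the core of the TATA box. Both strands were searched, and the pair of motifs overlapped nowhere in these windows. RefSeq windows were at hand for 6 of the 10 genes (Tnc, Postn, Sparc, Thbs2, Thbs4 and Tnmd).
Tnmd, chrX:133850758-133851007, plus strand: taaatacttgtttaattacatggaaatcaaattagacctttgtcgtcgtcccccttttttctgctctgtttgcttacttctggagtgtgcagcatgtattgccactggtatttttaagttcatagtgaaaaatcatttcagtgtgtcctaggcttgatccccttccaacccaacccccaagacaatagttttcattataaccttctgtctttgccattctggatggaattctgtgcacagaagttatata
Postn, chr3:54360857-54361106, plus strand: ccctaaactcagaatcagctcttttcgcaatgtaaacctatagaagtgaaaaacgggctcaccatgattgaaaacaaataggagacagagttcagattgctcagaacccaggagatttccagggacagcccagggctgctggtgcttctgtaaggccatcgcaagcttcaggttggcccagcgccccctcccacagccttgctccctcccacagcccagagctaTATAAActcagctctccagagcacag
Thbs2, chr17:14694263-14694512, minus strand: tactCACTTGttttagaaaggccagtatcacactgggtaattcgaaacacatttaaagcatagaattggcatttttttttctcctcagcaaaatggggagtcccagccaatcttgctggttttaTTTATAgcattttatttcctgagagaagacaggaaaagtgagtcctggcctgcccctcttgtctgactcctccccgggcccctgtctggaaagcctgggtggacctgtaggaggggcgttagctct
Thbs4, chr13:92794819-92795068, minus strand: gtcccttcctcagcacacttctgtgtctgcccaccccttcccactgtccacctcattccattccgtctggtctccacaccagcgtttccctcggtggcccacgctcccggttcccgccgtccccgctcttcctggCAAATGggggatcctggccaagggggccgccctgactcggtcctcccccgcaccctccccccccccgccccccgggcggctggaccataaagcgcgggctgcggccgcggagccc
CANNTG was found 1 time each in Thbs2 and Thbs4 and 0 times in Tnmd and Postn, where 66.2% of 32851 windows of this length held at least 1. TATAAA was found 1 time in Postn, close to the start site, and 1 time in Thbs2, there as TTTATA on the printed strand, and 12.4% of all windows held it. Another Postn start site in the table had neither motif in its 250 bases. These are matches of letters and not known sites.

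For the 6 genes with a range of at least 1 over the 8 samples, the 3 genes closest to each were found by the root mean square (RMS) difference of the log2 values over the 8 samples. Closest to Thbs2 were Col4a2, a basement membrane collagen (RMS 0.082), Mmp2, a gelatinase (0.11), and Sdc1, a cell surface proteoglycan (0.13), and among the 10 genes themselves Tnmd (0.24) was nearest. Postn was closest to Adam12, a metalloproteinase of mesenchymal cells (0.19), and to Tnn, another tenascin (0.23), followed by P2ry10b (0.24). Thbs4 was closest to Adamts1, a matrix protease (0.15), Mcam (0.22) and Rnf128 (0.23). Tnmd lay nearest to Slc2a13 (0.20), Gpx7 (0.22) and Ppic (0.24), with Thbs2 at rank 4 of all genes. Thbs1 lay nearest to Pde1c (0.10), Dsg2 (0.14) and Pmp22 (0.14), and Mkx to Cc2d2a (0.12), Cfap300 (0.13) and Vipr2 (0.13). These distances describe the 8 samples only and depend on the size of each gene's range.

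No other matricellular gene measured passed. Of 22 measured genes of this kind, 0 passed in limma (before adjustment, p was under 0.05 for 7 lower and 0 higher genes), with a median difference of -0.29. The difference was below 0 in 16 of the 22, against 56.1% of all genes. The unadjusted counts of this and the following lists stand beside the 18.2% lower and 12.9% higher of all genes. The lowest was Smoc1, a calcium-binding relative of Sparc, at -1.06 ± 0.30 (adjusted p = 0.056 in limma), and the highest Fbln2 at 0.25. Thbs3 differed by -0.89 ± 0.29 and Comp, the cartilage thrombospondin, by -0.29 ± 0.12, both short of the test. Of 23 receptors of these proteins, 0 passed in limma (3 higher and 1 lower, unadjusted), with a median difference of 0.023. They ran from -0.44 for the laminin-binding integrin subunit Itga3 to 0.65 for Itgb8, an integrin subunit that activates TGF-beta.

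Among the pathway lists, 4 genes were called, with 0 in the lists of other matricellular genes, receptors and fibrous matrix. They were 3 of 15 measured regulators of tendon and ligament and 1 of 13 measured genes of TGF-beta activation and response. The share over all genes was 9.14%. Of 15 measured regulators of tendon and ligament, 1 rose and 2 fell (3 higher and 5 lower, unadjusted), with a median difference of -0.22. The TGF-beta receptor gene Tgfbr1 was -1.08, -0.77 and -0.14 in the naive samples and 0.28, 0.32, 0.24, 0.17 and -0.095 in the immunized samples. All immunized samples were higher, and Tgfbr1 rose by 0.85 ± 0.19 (adjusted p = 0.035 in limma). Foxc2, a forkhead factor of mesenchyme, fell (-0.66 ± 0.14, adjusted p = 0.029 in limma), as did Sox9, the chondrocyte factor that tendon-to-bone attachment cells share with Scx (-0.83 ± 0.19, adjusted p = 0.034 in limma). Of 13 measured genes of TGF-beta activation and response, 1 fell and 0 rose (2 higher and 2 lower, unadjusted), with a median difference of -0.056. The counts of this TGF-beta list are near the shares of all genes. Those of the tendon and ligament regulators lie above them, which was not tested. Ltbp4, which encodes a latent TGF-beta binding protein of elastic fibres, was 0.54, 0.95 and 0.67 in the naive samples and -0.33, 0.12, -0.78, -0.12 and -0.71 in the immunized samples. The groups did not overlap, and Ltbp4 fell (-1.08 ± 0.21, adjusted p = 0.025 in limma). Its relative Ltbp2 was higher by 1.02 ± 0.31 without passing (adjusted p = 0.068 in limma). All 4 calls ended when naive replicate 1, naive replicate 2, immunized replicate 1 or immunized replicate 5 was left out, those of Foxc2, Sox9 and Ltbp4 also without naive replicate 3, those of Sox9 and Tgfbr1 without immunized replicate 3, and those of Foxc2, Sox9 and Tgfbr1 without immunized replicate 4 (adjusted p up to 0.108 for Tgfbr1, 0.085 for Foxc2, 0.094 for Sox9 and 0.087 for Ltbp4). All 4 also ended without both samples with joined numbers (adjusted p = 0.105 for Tgfbr1, 0.1503 for Foxc2, 0.174 for Sox9 and 0.157 for Ltbp4 in limma), Sox9 after quantile normalization (0.0505), and Tgfbr1 for each of its 3 probe sets tested singly (0.052 to 0.131).

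Fibrous matrix genes of tendon and annulus gave 0 calls of 20 in limma (1 higher and 5 lower, unadjusted), with a median difference of -0.20. The list ran from -0.90 ± 0.30 for Cilp (adjusted p = 0.083 in limma, groups not overlapping) to 0.73 for Lum. Of the small proteoglycan genes in this list, Lum (lumican) was highest at 0.73 ± 0.20 (adjusted p = 0.052 in limma). Fmod (fibromodulin) was lowest at -0.74 ± 0.22 (adjusted p = 0.063 in limma). Between them lay Aspn (0.63), Kera (-0.076), Ogn (-0.12), Dcn (-0.12) and Bgn (-0.24). Cnmd, which encodes chondromodulin, the cartilage relative of tenomodulin, differed by -0.74 ± 0.33 (adjusted p = 0.161 in limma).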

How the data were processed

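Total RNA of 3 naive and 5 immunized samples was labelled with biotin and hybridized to Affymetrix arrays, per the labels' protocols. The authors deposited log2 values, and the submitters' processing notes name robust multi-array averaging (RMA) without a version. The base of the logarithm is taken from RMA, since the table does not give it. From the values, each probe set was also centred on its median over the 8 arrays, which leaves group differences unaffected and removes absolute levels. The step of the printed numbers gave a coarse level of the lowest array.

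Of 45101 probe sets, 34958 named a single gene, 932 several and 9211 none. The 34945 naming a single gene that were not controls were averaged per gene. Groups were compared with limma 3.58.1 (R 4.3.3; lmFit, eBayes, two-sided) on all 18193 genes without a filter on low values, with Benjamini-Hochberg adjustment and a threshold of 0.05. The script was tested on simulated data. Errors are limma's SE; the number of arrays limits the precision. P-values from limma set the group difference against the spread between these samples, moderated over all genes. The members and lists were chosen with earlier results of these data known. The 10 members were always named, with up to 4 called genes of each other pathway list by largest moderated t, and the 3 genes nearest to members with a range of at least 1; other genes were chosen after their values were seen. Alternatives were other scalings, probe set choices, variance models, array weights, thresholds, a replicate block and omitted samples.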

Additional observations from a re-analysis of the deposited data

How the results depend on the processing

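Over all alternatives that gave a value, 170 of 184 recomputed differences of the 10 genes kept their direction and stayed short of the threshold. Part of these could not change direction. Leaving out probe sets below 4 removed none of these genes' sets, and the trended and robust variance leaves differences as they are. Median centring shifted all genes by the same 0.014. Fn1, Sparc, Thbs1, Thbs4, Tnmd, Scx and Mkx kept their sign in every setting run; Tnc, Postn and Thbs2 did not. The count of called members was 0 except with array weights (5), at a threshold of 0.10 (1, Thbs1) and when single samples were left out (0 to 1, Thbs1 without immunized replicate 2). With each sample left out in turn, Thbs1 ran from -0.96 to -0.55, Postn from -0.099 to 0.34 and Thbs2 from -0.38 to 0.031. Thbs2 was 0.032 for its probe set 1447862_x_at alone and 0.11 without naive replicate 1 and immunized replicates 3 and 5, a setting chosen after the data were seen. Tnc was -0.011 without both samples with joined numbers. With array weights Tnc was 0.48, Sparc -0.40, Thbs1 -0.78, Scx -0.34 and Mkx -0.64. The cause of these changes was not tested.

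The count over all genes was 1663 and depended on single samples (21 to 3003 with each left out). It was 908 after quantile normalization, 5900 with array weights, 0 in limma without both samples with joined numbers (3794 genes and 0 members at an unadjusted p under 0.05), 218 without naive replicate 1 and immunized replicates 3 and 5, 54 at a threshold of 0.01 and 3783 at 0.10.

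The groups share replicate numbers 1 to 3, but the numbers were not found to pair the samples: deviations of same-numbered samples from their group means correlated at -0.047, 0.24 and -0.10. With the replicate number as a block, 0 members and 7 genes in all passed in limma (before adjustment 2 of 10 members and 21.4% of all genes), Tnc was at -0.022 and Postn at -0.22. The adjusted p was then 0.117 for Tgfbr1, 0.115 for Foxc2, 0.159 for Sox9 and 0.094 for Ltbp4, and without naive replicate 1 and immunized replicates 3 and 5 it was 0.111, 0.106, 0.160 and 0.056.

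One pair of genes of 7 reached the smallest exact p under each scaling and probe set choice. Median centring and leaving out probe sets below 4 cannot change a difference within a sample here. Only quantile normalization and leaving out _x_at and _s_at probe sets could. With a sample left out the exact test could not pass (smallest p 0.0952 for 2 against 5 and 0.0571 for 3 against 4), so only directions were compared. Tnmd minus Scx was 0.17 and Scx minus Mkx -0.017 without _x_at and _s_at probe sets. With samples left out in turn, Fn1 minus Tnc ran from -0.27 to 0.38, Tnmd minus Scx from -0.24 to 0.028 and Tnmd minus Mkx from -0.025 to 0.33. Other pairs kept their sign.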

Other observations

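A further probe set, 1421811_at, is annotated to both Pald1 and Thbs1 and was left out of the Thbs1 values. It was 0.19, 0.21 and 0.23 in the naive samples and 0.040, -0.040, -0.24, -0.19 and -0.17 in the immunized samples, with means of 0.21 and -0.12 and no overlap. Which of these genes it measures is not known here, and it was not tested.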
